A study of Bos taurus with 60 samples.

Results

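Mammary tissue taken 3 days before dry-off fell into a class rich in milk gene reads and a class poor in them. The members were selected on measured values, as the share of all counts that fell on CSN1S1 (αS1-casein), CSN2 (β-casein) and LALBA (α-lactalbumin). Libraries with a share of at least 20% were called rich, and the others poor. Of the 12 libraries from D-3, 5 were rich and 7 were poor, out of 60 libraries in the whole series. The cows were multiparous Holstein cows, each sampled by mammary biopsy 3 days before dry-off (D-3) and 3, 7, 14 and 25 days after it (D3 to D25). From dry-off on they were assigned to cooling (CL), with shade, fans and soakers, or to heat stress (HT), with shade alone, so the D-3 tissue of both treatments precedes them. The rich class held 3 CL and 2 HT cows, and the poor class 3 CL and 4 HT cows. Successive biopsies did not come from the same gland of the udder, visible fat was trimmed off, and cells were not sorted, so each value is that of a piece of tissue. In such bulk samples, fewer cells of a type and less RNA per cell cannot be told apart.

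Secretory (luminal) epithelial cells of the lactating gland devote most of their messenger RNA to a few milk proteins. Caseins carry amino acids, calcium and phosphate to the calf, and α-lactalbumin joins B4GALT1 to form lactose synthase, the enzyme that makes the sugar of milk. When milking stops, the accumulated milk sets off involution, in which STAT5 signalling by prolactin gives way to STAT3 signalling by cytokines such as LIF, synthesis is shut down, lysosomal proteases are induced and part of the epithelium is lost and renewed.

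In the rich libraries the share of the 3 milk genes was 40.9% in cow 7965, 43.1% in cow 8541, 40.2% in cow 8564, 44.4% in cow 8647 and 49.8% in cow 8713. Among the poor libraries it had a lowest value of 0.19%, a median of 0.806% and a highest value of 8.03%, the last in cow 8668. The members nearest the threshold were thus at 40.2% inside it and at 8.03% outside it, with no library between. CSN2 took 20.04% to 23.0% of the counts in the rich class, CSN1S1 17.0% to 23.7% and LALBA 1.97% to 3.13%. In the poor class LALBA was at most 0.463%. All 12 libraries held some reads of each of the 3 genes. Beyond them, the 5 most abundant other loci took 17.3% to 19.7% of the counts in rich and 2.81% to 7.91% in poor libraries. Rich libraries also had more counts in total, 24537294 to 25324602 against 21620814 to 24045855, and fewer loci with a read, 15835 to 16651 against 17635 to 17974. The part of depth and composition in the differences below was not tested.

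**Figure D1:**
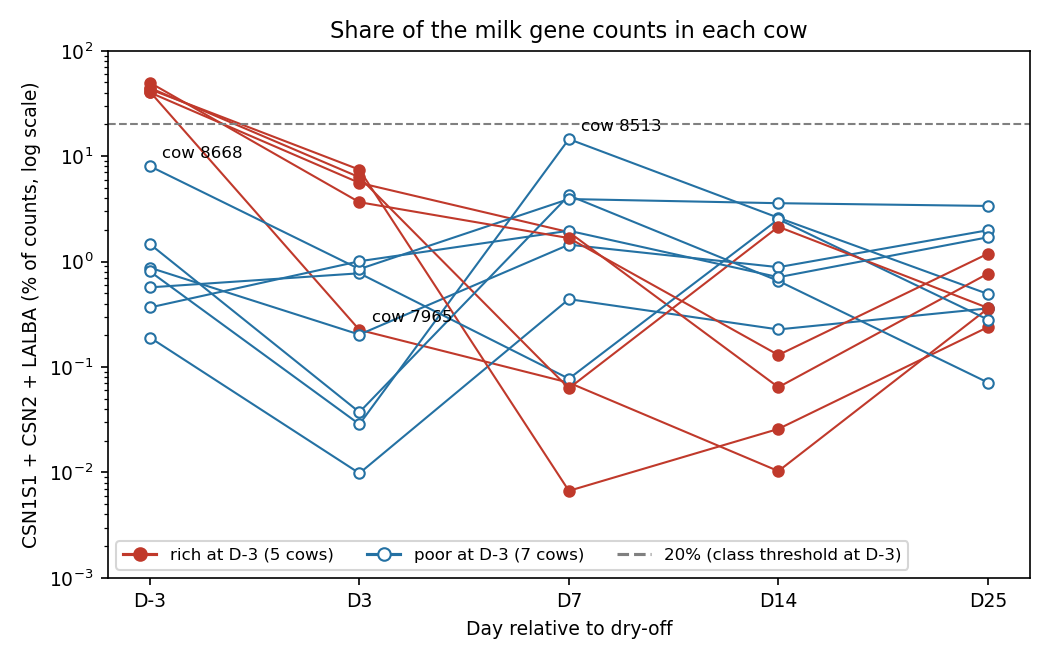
Share of the counts that fell on CSN1S1, CSN2 and LALBA (percent, log scale) in each of the 12 cows at the 5 days. Filled red points are the 5 cows that were rich at D-3 and open blue points the 7 that were poor. The rich cows start between 40.2% and 49.8%, and 4 of them still lie above all poor cows at D3, with cow 7965 at 0.225%.

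Several later libraries stand apart and touch the results that follow. Cow 7965, rich at D-3, lay within the range of the poor cows at D3 for many of the genes described here, the milk genes included. Its D14 library had almost no reads of luminal epithelium markers, with KRT19 (a luminal keratin) at 3.56 CPM against 244 to 1758 in the other 11 cows, and the basal keratin KRT5 at 6.97 CPM. In the same library DCN (decorin, a fibroblast product) was at 5717 CPM, while no other D14 library exceeded 1650.0. Cows 8513 and 8660, both poor, had D14 and D25 libraries that resembled the earlier libraries of the other cow more than their own, which leaves the comparison of classes within a day as it is.

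To see how far the rich tissue differed beyond its milk genes, its other loci were compared with those of the poor tissue. Values are given as CPM, counts scaled to a common library size over the reads outside the 3 milk loci, with TMM factors, and differences as log2 of rich over poor with the SE of the fit. The classes were cut from these same libraries, so the D-3 differences are a description and carry no test. A locus was counted where all 5 rich libraries lay above, or all below, the 7 poor ones and the classes differed at least 2-fold, which is 1 on the log2 scale. Of 14711 loci, 947 were higher in rich tissue, which is 6.44%, and 807 were lower, which is 5.49%. When library size alone was used, without TMM factors, the median of all loci moved from -0.06 to -0.90 and the split from 947 and 807 to 289 and 4421. All differences below are therefore relative to the bulk of the loci. Only 3033 loci could be paired with a symbol, mostly loci that had changed over time, from an incomplete copy of the study's gene tables. Of the 219 listed genes, 101 could be paired with a locus. Of 3007 measured loci with a symbol, 456 were counted as higher in rich tissue and 183 as lower. For the higher side this is a larger share than over all loci. Counts of list members are to be read with that in mind.

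Genes that make milk fat were much higher in the rich tissue. Of the 13 genes measured for fatty acid and triglyceride synthesis, 10 were higher with classes apart and none lower, and their median log2 difference was 3.26, against -0.06 for all loci. In the order of cows 7965, 8541, 8564, 8647 and 8713, FASN (fatty acid synthase) was at 9856, 8827, 27069, 20119 and 18276 CPM. Poor tissue had FASN at 852 to 5630.4 CPM (median 1664), below every rich cow. ACACA, which makes the malonyl-CoA that FASN uses, was at 985, 1189, 1497, 971 and 1802 CPM in the same order and at 92.5 to 211 CPM (median 134) in poor cows, a difference of 3.096 ± 0.24. ACSS2, which activates the acetate that ruminants use to build fat, was at 951, 1352, 1282, 2521 and 3239 CPM against 75.4 to 242 CPM (median 113). Its mitochondrial relative ACSS1 was at 481, 481, 649.9, 494 and 705 CPM against 125 to 668 CPM (median 163), and here the classes overlapped. The largest difference of the list was that of SCD, the Δ9 desaturase that makes oleic acid, at 5.18 ± 0.51. Enzymes of triglyceride assembly, GPAM with 4.16 ± 0.39, AGPAT6 with 3.26 ± 0.20 and LPIN1 with 4.08 ± 0.54, were all apart. SREBF1, a transcription factor of lipid synthesis, was at 306, 570.0, 298, 466 and 553 CPM against 79.5 to 317 CPM (median 146) and overlapped, whereas its regulator INSIG1 was at 383, 874, 426, 2454 and 1968 CPM against 30.4 to 184 CPM (median 45.9) and did not.

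Fat uptake and the fat globule followed the same pattern, with 5 of 6 genes higher and a median of 3.93. LPL, the lipase that frees fatty acids from blood lipids, was at 3220.2, 2064, 2414, 6416 and 7363 CPM in rich cows and at 39.9 to 296 CPM (median 77.2) in poor cows. CD36, a fatty acid receptor, was at 5729.6, 7338, 5237, 8547 and 9608 CPM against 277 to 977 CPM (median 478). FABP3, which carries fatty acids within the cell, was at 1797, 2285, 2594, 3482 and 4517 CPM against 2.13 to 197 CPM (median 17.2), and differed by 5.92 ± 0.89. Poor cows varied widely in LPL and FABP3, yet the highest of them stayed far below the lowest rich cow. BTN1A1 (butyrophilin of the globule coat) was at 1770.4, 3769.8, 2351, 2817 and 3687 CPM against 46.6 to 307 CPM (median 172), and its partner XDH at 9976, 17452, 14427, 13142 and 16069 CPM against 610.3 to 2625 CPM (median 904). PLIN2, which coats lipid droplets in many cell types, overlapped between classes (1.46 ± 0.32).

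For lactose, 5 of 6 genes were higher, with a median of 1.92. SLC2A1 (the glucose transporter GLUT1) was at 151, 253, 183, 207 and 224 CPM in rich cows and at 25.9 to 61.8 CPM (median 36) in poor cows. HK2, a hexokinase, was at 38.7, 98.8, 35.9, 76.1 and 77.4 CPM against 11.9 to 29.4 CPM (median 16.5). UGP2, which makes UDP-glucose, was at 569.7, 903, 1165, 1079 and 1065 CPM against 192 to 314 CPM (median 224). The exception was PGM1 (phosphoglucomutase), at 51.6, 44.1, 53.3, 50.7 and 63.4 CPM against 33.3 to 77.2 CPM (median 50.0), where the rich values lay within the poor range. B4GALT1, the catalytic subunit of lactose synthase, was higher by 2.03 ± 0.29, and SLC35A2, which brings UDP-galactose into the Golgi, by 1.43 ± 0.19.

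Amino acid supply was less uniform. Of 10 genes, 7 were higher and none lower, with a median of 1.88. SLC7A5, which imports large neutral amino acids, was at 610.1, 977, 412, 787 and 718 CPM in rich and at 27.5 to 92.5 CPM (median 37.9) in poor cows, and the glutamine transporter SLC1A5 at 250.2, 525, 286, 220.2 and 230.5 CPM against 13.9 to 50.7 CPM (median 26.1). SLC3A2, the heavy chain that pairs with SLC7A5, was at 294, 349, 182, 169 and 174 CPM against 88.6 to 254 CPM (median 163) and overlapped. SLC7A8, another light chain of SLC3A2, was at 39.2, 11.4, 48.8, 16.5 and 45.2 CPM against 12.7 to 167 CPM (median 18.4), so that of both light chains only SLC7A5 was apart. In serine synthesis, PSAT1 (2.88 ± 0.31) and PSPH (2.04 ± 0.28) were higher, while PHGDH, the first step of that pathway, was not apart (0.03 ± 0.34). ASNS (asparagine synthetase) was higher by 2.30 ± 0.22.

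Cholesterol synthesis had 10 of 12 genes higher and a median of 2.15, and the rich cows were far from even. HMGCS1, an early step of the pathway, was at 124, 284, 230.4, 1453 and 927 CPM in the rich cows and at 46.1 to 102 CPM (median 75.2) in the poor, with cow 8647 far above cow 7965. IDI1 was at 79.1, 80.5, 79.6, 259 and 252 CPM against 16.5 to 27.3 CPM (median 26.3), and MVD at 30.4, 67.6, 46.2, 75.9 and 69.6 CPM against 15.1 to 33.1 CPM (median 22.4), where cow 7965 fell within the poor range. Cows 8647 and 8713 held the top pair of values for each of these 3 enzymes.

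Calcium and mineral transport showed the largest list median, 4.99, with 5 of 6 genes apart. ATP2C2, a Golgi calcium and manganese pump, was at 1329, 3518, 1935, 1893 and 2729 CPM in rich and 58.8 to 261 CPM (median 101) in poor cows. ORAI1, a calcium channel of the plasma membrane, was at 112, 311, 178, 229 and 249 CPM against 15.6 to 39.6 CPM. SLC34A2, a phosphate carrier, was at 1569.8, 1698, 4707, 2559 and 3439.8 CPM against 14.8 to 106 CPM (median 18.2), and the zinc transporter SLC30A4 at 166, 185, 404, 284 and 326 CPM against 46.1 to 91.4 CPM (median 57). PTHLH, the hormone that draws calcium from bone during lactation, was at 302, 693, 446, 608 and 555 CPM against 0.703 to 39 CPM (median 2.17). CALB1 (calbindin) varied most within a class, at 69.4, 11.1, 2.19, 2114 and 395 CPM in rich cows, and overlapped with poor cows, where the highest value was 9.89 CPM.

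Lactogenic signalling could be read from 5 of 12 listed genes, with a median of 0.65 that was -0.21 with library size alone. Of these 5 genes, 1 was counted, CISH, a feedback inhibitor that STAT5 induces, at 85.7 to 211 CPM against 33.4 to 68.1 CPM. STAT5B was at 227, 266, 270.3, 205 and 275 CPM against 106 to 179 CPM (median 139) and GATA3, a luminal transcription factor, at 159, 165, 200.2, 183 and 192 CPM against 81.4 to 148 CPM (median 119). Both were apart, but by less than 2-fold. INSR (insulin receptor) was apart in the other direction, at 106, 102, 114, 94.5 and 111 CPM against 122 to 180.3 CPM (median 128). IGF1R overlapped, at 133, 119, 141, 111 and 127 CPM against 75.8 to 138 CPM (median 103). SSR1, the only gene of the list for protein export that was measured, was higher by 1.14 ± 0.15.

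Genes of cell division were lower in rich tissue. Of 11 mitosis genes, 6 were lower in rich tissue with classes apart and none higher, and all 11 had a negative difference, with a median of -2.67. MKI67, present in cycling cells, was at 7.65, 2.85, 23.9, 7.11 and 9.39 CPM in rich and at 25 to 118 CPM (median 67.2) in poor tissue. TOP2A was at 16.7, 6.76, 15.9, 16.8 and 9.83 CPM against 27.5 to 173 CPM (median 91.6), and the spindle checkpoint kinase BUB1 at 3.47, 1.66, 3.94, 1.03 and 1.17 CPM against 5.78 to 24.8 CPM (median 15.3). FOXM1, a transcription factor of mitotic genes, was at 0.714, 0, 1.97, 0.388 and 0 CPM against 1.75 to 10.7 CPM (median 3.89) and overlapped, as did BUB1B, CCNA2, CCNB2 and CDK1. Summed over the 11 genes, rich libraries held 38.1 to 91.5 CPM and poor libraries 127 to 501. With library size alone the median was -3.52, again with all 11 below 0.

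Genes of involution were not higher in the poor tissue by the count used. None of 6 was apart and the median was -0.18. LIF was at 1.12, 1.19, 2.3, 0.388 and 1.32 CPM in rich and at 0.98 to 15.6 CPM (median 1.5) in poor tissue, OSMR, a cytokine receptor subunit, at 155, 178, 336, 217 and 194 CPM against 94.9 to 654 CPM (median 203), and STAT3 at 216, 244, 347, 238 and 242 CPM against 148 to 444 CPM (median 253). In each of them the poor cows spread more widely than the rich and enclosed most of the rich values. IGFBP5, which binds insulin-like growth factors, was at 79.1, 105, 128, 72.6 and 82.9 CPM against 37.5 to 215 CPM (median 111). LBP, an acute phase protein, was at 46.6, 68.8, 59.1, 64.4 and 51.8 CPM against 15.6 to 571 CPM (median 71.4). SLPI, a protease inhibitor of secretions, was at 1.66 CPM or less in all libraries.

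Matrix genes had 0 of 6 apart, all 6 with a negative difference and a median of -1.92. FN1 (fibronectin) was at 547, 292, 356, 326 and 338 CPM in rich and 160.2 to 1178 CPM (median 624) in poor tissue, TIMP1 at 21.7, 20.3, 43.3, 23.3 and 13.9 CPM against 13.9 to 63 CPM (median 27), THBS1 at 196, 156, 177, 149.8 and 120.4 CPM against 106 to 1118 CPM (median 454) and MXRA5 at 110.2, 38.4, 70.8, 74.3 and 36.3 CPM against 61.1 to 502 CPM (median 301). Poor cows ranged in THBS1 from below every rich cow to far above.

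Markers of cell types were compared to check what the classes were as tissue. Luminal epithelium markers were present in both, with a summed level of 1255 to 1566 CPM in rich and 763 to 1801 in poor libraries and none of the 4 at 0. KRT19 was at 956, 1110.3, 1246, 1038 and 985 CPM against 475 to 1254 CPM (median 630.4), CLDN3 at 108, 163, 164, 153 and 174 CPM against 63.3 to 195 CPM (median 108) and CLDN7 at 153, 218, 133, 127 and 178 CPM against 110.1 to 279.7 CPM (median 127), all overlapping. CLDN4, a tight junction protein, was apart and lower in rich tissue, at 37.6, 42, 22.7, 18.9 and 30.1 CPM against 69.7 to 162 CPM (median 125). Luminal markers were thus found in the poor tissue as well, as far as the 4 of 8 listed markers that could be measured show. The 6 myoepithelial and smooth muscle genes were summed to 1728 to 3077 CPM in rich and 713 to 4338 in poor libraries, with 0 apart. KRT5 was at 498, 273, 261, 167 and 159.7 CPM against 228 to 559 CPM (median 454), ACTA2 at 786, 357, 397, 499 and 557 CPM against 100.01 to 952 CPM (median 495), MYH11 at 932, 577, 863, 643 and 723 CPM against 127 to 1124 CPM (median 469) and CNN1 at 60.5, 34.7, 63.2, 61.4 and 89.5 CPM against 6.54 to 192 CPM (median 32).

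Some markers of other cells moved with the classes. FABP4, listed for adipocytes, was at 601, 529, 373, 588 and 563 CPM in rich and 45.5 to 148 CPM (median 107) in poor tissue, while ADIPOQ, the defining adipocyte hormone, was at 16, 4.39, 8.43, 15.4 and 20.8 CPM against 5.78 to 29.7 CPM (median 13.8) and overlapped. KDR, a receptor of endothelial cells, was at 350.1, 274, 309, 402 and 365 CPM against 61.7 to 158 CPM (median 90.7) and apart, and EMCN, the other endothelial gene measured, overlapped at 68.4, 40.8, 38.4, 56.7 and 37.1 CPM against 24.3 to 45.5 CPM (median 35.1). DCN was at 924, 415, 453, 547 and 489 CPM against 541 to 1147 CPM (median 876), and the macrophage receptor MSR1 at 45.1, 38.3, 57.2, 60.5 and 55.8 CPM against 34.9 to 55.9 CPM (median 51). MYH2 of skeletal muscle was at most 2.79 CPM. The part of these cells in the class differences was not tested. Markers of T cells, B cells, neutrophils and red blood cells were not among the loci paired with a symbol.

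**Figure D2:**
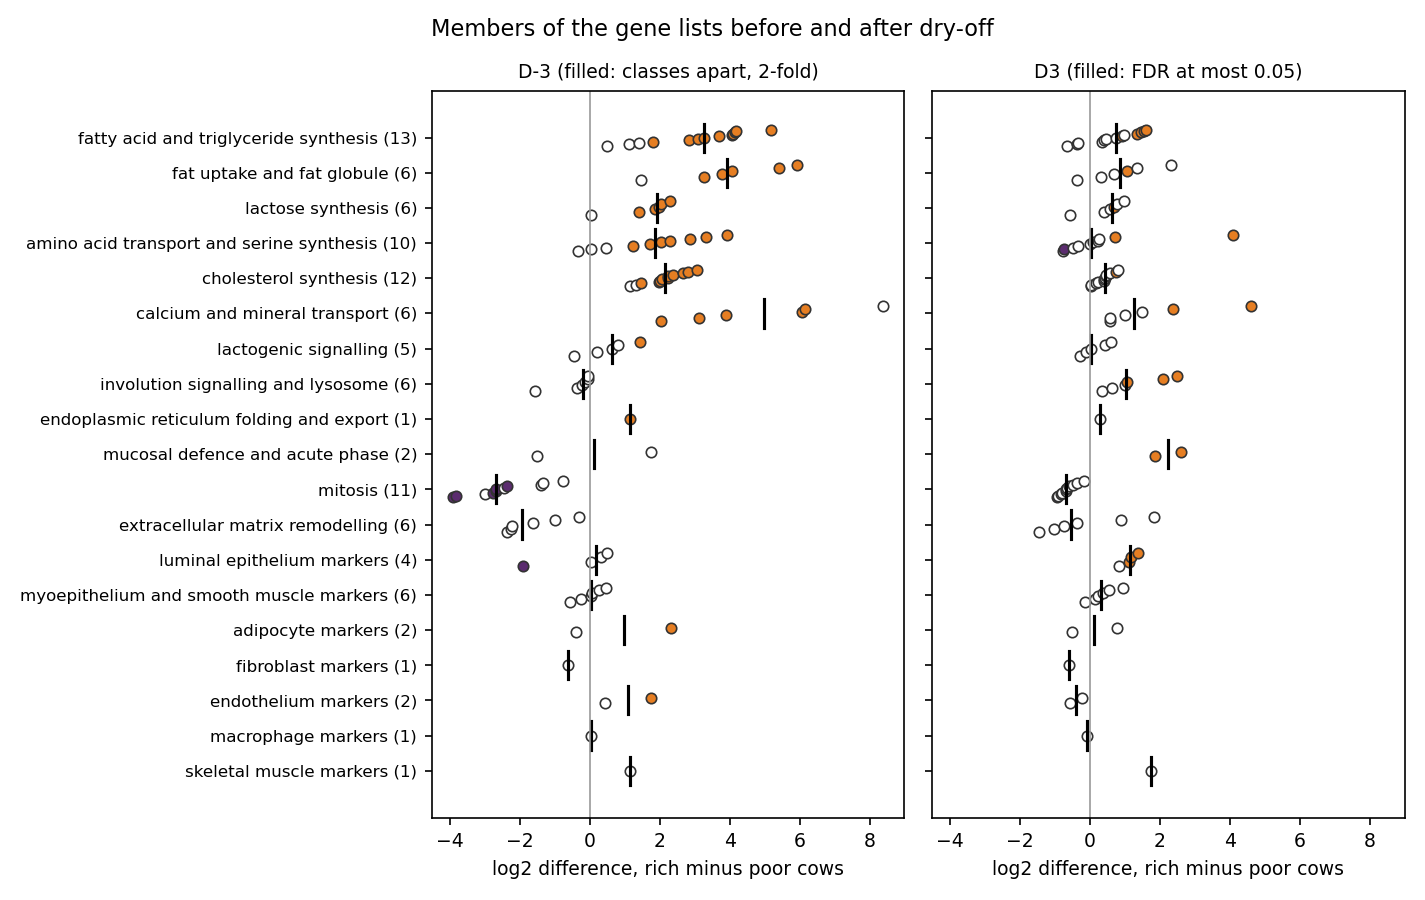
Log2 difference of rich minus poor cows (horizontal axis) for each measured member of 19 gene lists (vertical axis, number of members in brackets), at D-3 on the left and at D3 on the right. Each point is a gene and the black bar the list median. Orange points are higher and purple points lower, by classes apart and 2-fold at D-3 (a description) and by FDR at most 0.05 at D3, and open points are neither. The synthetic lists lie far right at D-3, with medians from 1.88 to 4.99, and nearer 0 at D3, while involution genes are at a median of -0.18 at D-3 and of 1.03 at D3.

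The 10 largest differences among loci with a symbol were chosen by size in each direction. The largest was HSTN, a gene of the casein cluster, at 2115, 3989, 2796, 4234 and 3871 CPM in rich and 1.17 to 178 CPM (median 4.67) in poor tissue, a difference of 6.70 ± 1.23. ALOX15, a lipoxygenase, was at 715, 845, 636, 796 and 722 CPM against 2.21 to 31.1 CPM (median 3.8). The zinc transporter SLC30A2, which moves zinc into milk vesicles, was at 121, 166, 87.8, 102 and 229 CPM against 0.583 to 5.42 CPM (median 2.04). KRT24, a keratin, differed by 5.99 ± 0.60, TECTB by 5.84 ± 0.68 and LOC786474 by 5.99 ± 1.005. PTHLH, SLC34A2, FABP3 and LPL made up the rest.

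In the lower direction the largest difference was that of CHRDL2, a chordin-like inhibitor of BMP ligands, at 0.612, 0.119, 0.219, 0.388 and 0.587 CPM in rich and 3.61 to 24.6 CPM (median 7.83) in poor tissue. NCAM2, an adhesion molecule, was at 0.918, 0, 0.328, 0.129 and 0.44 CPM against 2.09 to 11.2 CPM (median 8.34). Of the remaining 8, the 4 genes CENPK (-4.01 ± 0.83), TTK (-3.92 ± 0.77), NEK2 (-3.89 ± 0.64) and CCNB1 (-3.83 ± 0.64) act at the kinetochore, the centrosome or the entry to mitosis. EXO1 (-3.97 ± 0.93) and DNA2 (-3.94 ± 0.72) are nucleases of DNA repair. LOC527397 differed by -4.22 ± 0.84. A locus that joins LOC617219, LOC781146 and LYSB was at 0 in 4 rich cows and at most 1.06 CPM in poor cows, so its value of -4.11 depends on how the fit treats zeros.

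Each D-3 library was then compared with the later libraries of its own cow, as a correlation of log2 CPM across 14711 loci, which are not independent of each other. With D3, the correlation was 0.903 to 0.940 in rich cows and 0.933 to 0.982 in poor cows. With D7, rich cows were at 0.857 to 0.919 and poor cows at 0.949 to 0.980, with no overlap. At D25 the ranges were 0.875 to 0.919 and 0.924 to 0.979. The median was higher in poor cows at each of the 4 days, with 0.972 against 0.926 at D3. Both libraries of a pair were labelled as from the same cow. For cows 8513 and 8660 this is in doubt at D14 and D25, where their libraries resembled those of the other cow. The lowest poor value at D25, 0.924, was that of cow 8513. No test was made of a measure that rests on the D-3 libraries. The lowest value, 0.787, was that of cow 7965 with its D14 library.

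**Figure D3:**
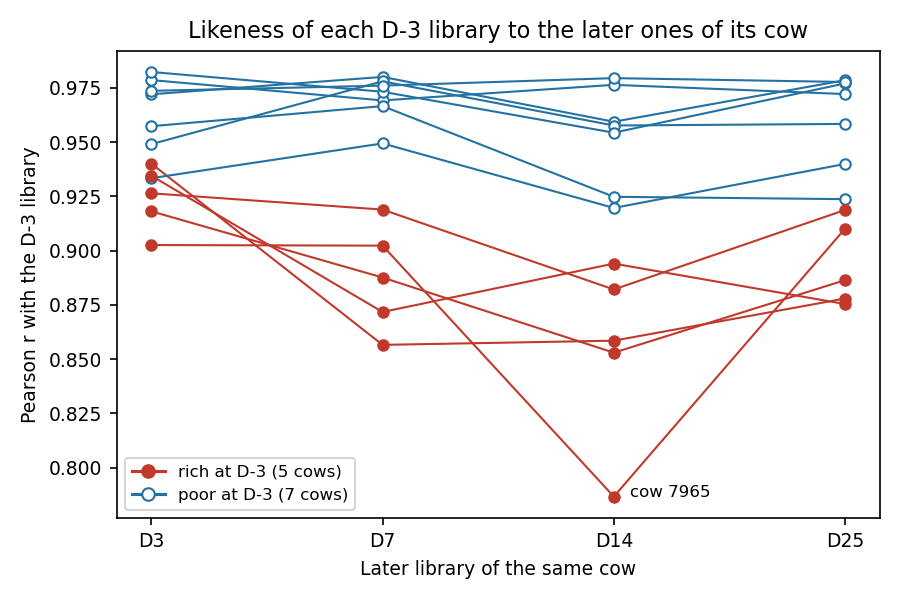
Pearson correlation (vertical axis) of log2 CPM across 14711 loci between the D-3 library of each cow and the libraries labelled as its own at D3, D7, D14 and D25 (horizontal axis), with the 3 milk loci left out. Filled red points are the 5 rich cows and open blue points the 7 poor cows. From D7 on every poor cow lies above every rich cow, and cow 7965 falls to 0.787 at D14.

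Whether the classes stayed different after dry-off was tested in the libraries that did not define them. At D3 the share of the 3 milk genes was 4.64% ± 2.83 (SD, n = 5) in the rich cows and 0.416% ± 0.442 (SD, n = 7) in the poor cows. The rich cows were at 0.225%, 7.45%, 5.58%, 6.31% and 3.66% in the order above, and poor cows at 0.00982% to 1.01%, so that only cow 7965 fell within the poor range. This difference passed a two-sided exact permutation test over the 792 ways of choosing 5 of 12 cows (p = 0.0101, 0.0404 after adjustment over the 4 days). From D3 to D7 the share was lower in 5 of 5 rich cows and higher in 6 of 7 poor cows. At D7 the rich cows had 0.743% ± 0.957 and the poor cows 3.80% ± 4.99, and the difference did not pass (exact permutation p = 0.101, adjusted 0.168). D14 gave 0.474% ± 0.932 against 1.60% ± 1.28 (exact permutation p = 0.126, adjusted 0.168) and D25 0.583% ± 0.392 against 1.18% ± 1.22 (exact permutation p = 0.323, adjusted 0.323). The order of the class means was thus reversed from D7 on, without passing the test.

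Over all other loci, 1276 DEGs separated the cows of the rich class from those of the poor class at D3 (FDR at most 0.05), with 883 higher, which is 6% of those tested, and 393 lower, which is 2.67%. Of the 3007 measured loci with a symbol, 435 passed, a larger share than over all loci, which bears on the list counts below. With library size alone the split was 396 and 871, with the median of all loci at -0.29 in place of -0.04. The number moved with the cow left out. Without cow 7965 it was 4471, and without cow 8541, 8564, 8647 or 8713 it was 462, 437, 499 and 472, respectively. Of the poor cows, leaving out 8060, 8314, 8513, 8603 or 8686 gave 668, 790, 741, 775 and 730, 8668 gave 917 and 8660 gave 1484. All 1276 loci also passed without cow 7965. Classes did not overlap at D3 for 110 of the 883 and 105 of the 393, and over all 14711 loci for 134 on the higher side (0.911%) and 140 on the lower (0.952%).

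The same cows differed at D-3, so the D3 differences were set beside those at D-3 as a description. Of the 883 loci higher at D3, 735 (83.2%) had a positive difference at D-3, against 46.3% of all loci tested, and 275 (31.1% of the 883 and 29.0% of the 947) had been apart. Of the 393 lower, 364 (92.6%) had a negative difference at D-3 and 103 (26.2% of the 393 and 12.8% of the 807) had been apart. Of all loci tested, 6.44% had been apart and at least 2-fold different on the higher side at D-3 and 5.49% on the lower side. The 275 and 103 loci were counted by the same rule. The median difference of all loci at D-3 was -0.06, so a negative sign was more common there than a positive sign. Most D3 differences thus had the sign of the D-3 difference, while LBP, LIF and SLC7A8 were among those that did not.

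Milk fat genes had 5 of 13 members higher at D3 and none lower, with a median of 0.76. LPIN1 was at 24.2, 71.2, 51.8, 65 and 109 CPM in the cows of the rich class and at 14.7 to 26.3 CPM (median 21) in those of the poor class (FDR = 0.011). ACSS1 was at 244, 870.1, 579, 793 and 1112 CPM against 178 to 431 CPM (median 202) (FDR = 0.0215). SCD, INSIG1 and ACACA also passed, by 1.56, 1.33 and 0.91. FASN, at 654, 1289, 890.1, 767 and 370.2 CPM against 502 to 3189.9 CPM (median 906), had no difference that passed (FDR = 0.318), and neither had GPAM (-0.37 ± 0.39). Of fat uptake genes, XDH passed (1.07 ± 0.30, FDR = 0.0439), whereas LPL was at 41.8, 85.8, 54.8, 89.9 and 71.2 CPM against 28.7 to 80.8 CPM (median 53.7) (FDR = 0.502).

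In the other synthetic lists few genes passed at D3. SLC2A1 was the only member of 6 for lactose (0.68 ± 0.18, FDR = 0.035). For cholesterol it was SC5D of 12 (0.76 ± 0.17, FDR = 0.0194), a late step of the pathway, where the classes were apart at 120.0, 165, 148, 190.4 and 219 CPM against 72.7 to 119 CPM (median 99.6). ATP2C2 was at 58.8, 788, 344, 402 and 520.3 CPM against 45.6 to 124 CPM (median 74) (FDR = 0.012). CALB1 passed as well (FDR = 0.0416), but at 0.428, 0.0561, 0, 11.5 and 1.74 CPM it rested mostly on cow 8647, and its exact permutation test gave p = 0.109. Lactogenic signalling had 0 of 5, although IGF1R was apart at 180.0, 171, 157, 179 and 198 CPM against 99.7 to 142 CPM (median 137) (FDR = 0.0542).

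Of 10 amino acid genes, 2 were higher and 1 was lower at D3, with a median of 0.04 that was -0.21 with library size alone. SLC7A8, which overlapped before dry-off, was at 26.1, 364, 445, 428 and 724 CPM at D3 in the cows of the rich class and at 11 to 51.2 CPM (median 17.5) in the others (difference 4.10 ± 0.59, FDR = 0.00962, exact permutation p = 0.00758). In the rich class 4 cows were thus above all poor cows and cow 7965 was among them. SLC3A2, its heavy chain, also passed, at 234, 407, 409, 324 and 384 CPM against 140.1 to 316 CPM (median 212) (FDR = 0.0401). SLC7A5, at 412 to 977 CPM in rich cows at D-3, was at 20.6 to 62.3 CPM in them at D3, and its difference did not pass (-0.47 ± 0.33, FDR = 0.368). PSPH changed sides. It was higher in all rich cows at D-3 and lower in all of them at D3, at 7.23, 4.83, 6.42, 5.47 and 4.77 CPM against 7.46 to 10.9 CPM (median 10.2) (FDR = 0.0373, exact permutation p = 0.00253).

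Involution genes were on the higher side in the cows of the rich class at D3. All 6 had a positive difference, 3 of them passed and the median was 1.03. CTSV, a lysosomal protease, was at 91.5, 311, 409, 326 and 548 CPM in cows of the rich class and at 45.7 to 99.3 CPM (median 80.3) in those of the poor class (2.08 ± 0.32, FDR = 0.00962). The gene list named CTSL, which was paired with this locus through a synonym. LIF was at 3.29, 14.6, 37.7, 26.6 and 20.3 CPM against 1.28 to 6.91 CPM (median 2.81) (2.49 ± 0.50, FDR = 0.015), and OSMR at 367, 706, 644, 719 and 873 CPM against 156 to 483 CPM (median 324) (FDR = 0.0264). STAT3 was at 325, 409, 394, 395 and 526 CPM against 242 to 381 CPM (median 329) and did not pass (FDR = 0.182). Of the defence genes, LBP was at 198, 719, 533, 662 and 1377 CPM against 119 to 267 CPM (median 169) (1.87 ± 0.37, FDR = 0.0142), with 4 rich cows above all poor cows. SLPI passed at low levels of at most 6.11 CPM (FDR = 0.0416). Within the rich cows LIF was higher at D3 than at D-3 by 1.48 to 5.80 on the log2 scale and LBP by 2.09 to 4.73, while in poor cows the same differences ran from -1.68 to 2.70 and from -2.19 to 4.03.

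Luminal markers were also higher at D3 in the cows of the rich class, with 3 of 4 passing and a summed level of 1087 to 5331 CPM against 729 to 2082. KRT19 was at 717, 2247, 3444, 1501 and 1497 CPM against 489 to 1376 CPM (median 656) (FDR = 0.0468), CLDN3 at 94.3, 251, 747, 336 and 205 CPM against 78.3 to 174 CPM (median 113) (FDR = 0.0402) and CLDN7 at 166, 433, 598, 380.1 and 348 CPM against 103 to 282 CPM (median 173) (FDR = 0.0295). These markers moved with the synthetic and involution genes listed above, and their part in those differences was not tested. None of 6 myoepithelial genes passed, and neither did the fibroblast gene DCN (-0.59 ± 0.27, FDR = 0.17), KDR (-0.57 ± 0.21, FDR = 0.0981) or FABP4 (0.77 ± 0.55, FDR = 0.376).

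Mitosis genes were closer between the classes than before dry-off. All 11 remained on the negative side, with a median of -0.67, and 1 passed. This was CCNB1 (cyclin B1), at 6.07, 3.71, 5.96, 8.62 and 4.39 CPM against 5.82 to 14.8 CPM (median 10.7) (FDR = 0.0429). Within rich cows the median change of the 11 genes from D-3 to D3 was 1.75 on the log2 scale, and within poor cows -0.50, where the median of all loci changed by 0.02 and -0.01. Matrix genes had 0 of 6 passing, and within-cow medians of 2.75 in rich and 1.20 in poor cows. For milk fat synthesis the within-cow medians were -3.03 and -0.25, and for involution genes 1.78 and 0.45. The rich cows thus had the larger change in each of these 4 lists, a description that was not tested, since the D-3 values chose the classes. Loci with a symbol were mostly loci that had changed over time. A larger change in the lists than over all loci therefore follows in part from that choice.

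**Figure D4:**
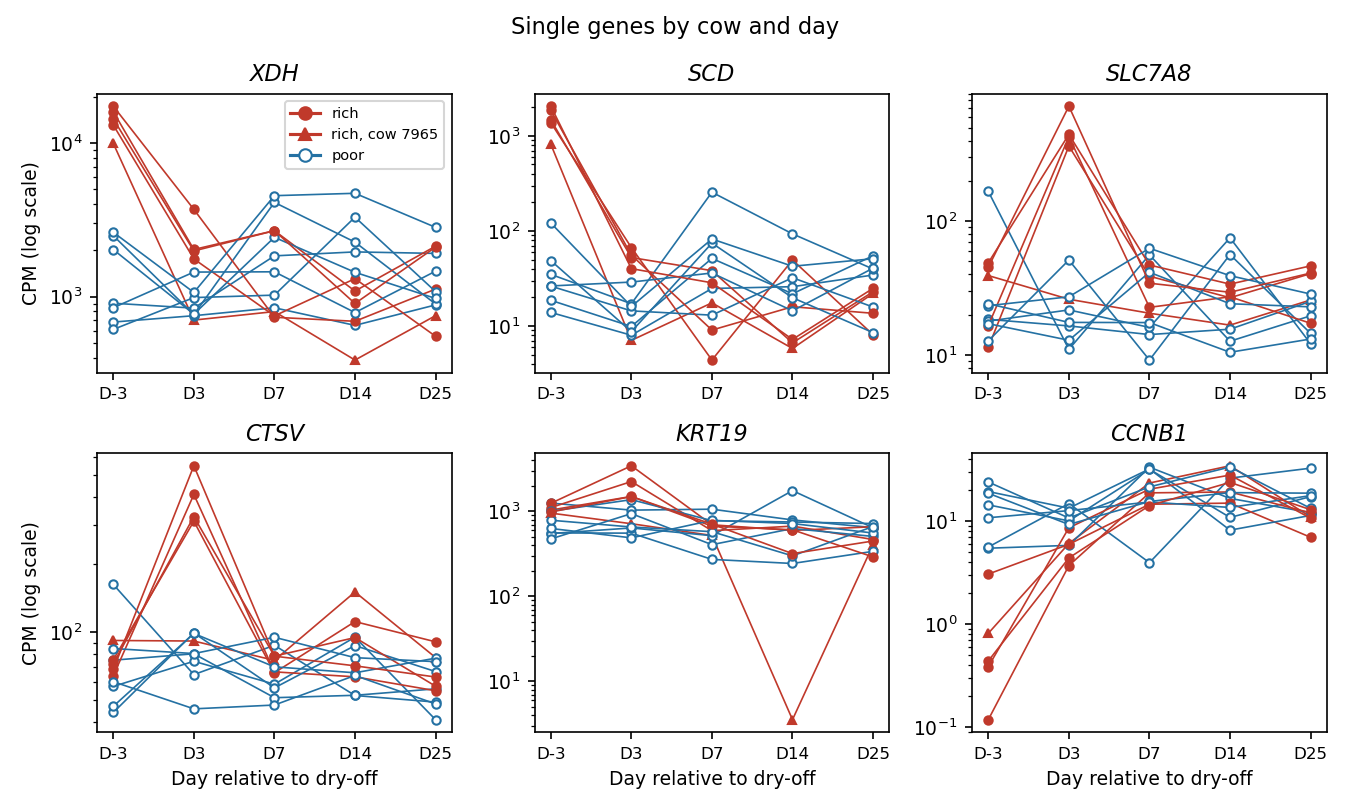
CPM (log scale) of 6 genes in each cow at the 5 days relative to dry-off, with the 5 cows of the rich class in filled red (cow 7965 as triangles) and the 7 of the poor class in open blue. XDH and SCD start high in the rich cows, SLC7A8, CTSV and KRT19 peak at D3 in 4 of them but not in cow 7965, and CCNB1 starts low in the rich cows and reaches the level of the poor cows by D7. KRT19 of cow 7965 is at 3.56 CPM at D14.

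Outside the lists, the 5 genes with the smallest p in each direction at D3 included several with no class overlap. HNF4G, a nuclear receptor, was at 5.22, 4.94, 5.49, 4.03 and 4.72 CPM in cows of the rich class and at 1.04 to 1.74 CPM (median 1.43) in the others (1.76 ± 0.22, FDR = 0.00568, exact permutation p = 0.00253, the smallest the design allows). FBP2, a gluconeogenic phosphatase, was at 2.4, 37.1, 41, 28.3 and 31.6 CPM against 0.671 to 3.09 CPM (median 1.31) (FDR = 0.00941), with cow 7965 in the poor range. LOC507550 was at 58.6, 97.1, 97.2, 179 and 314 CPM against 3.5 to 25 CPM (median 11.2) (FDR = 0.00962), which followed a difference of -1.51 ± 0.92 at D-3. STK38L, a kinase, was apart at 87.3, 187, 185, 195 and 185 CPM against 41.6 to 72.1 CPM (median 62.1) (FDR = 0.00962). SLC7A8 was the remaining gene of this set.

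Among genes lower in the cows of the rich class, NRP2 (neuropilin 2) was at 74.7, 65, 58.5, 66.2 and 62 CPM against 76.4 to 172 CPM (median 134) (FDR = 0.0129), close to its D-3 difference of -1.08. NGFR, a neurotrophin receptor found on myoepithelial and stromal cells, was at 37.6, 15.8, 16.3, 16.6 and 5.53 CPM against 31.3 to 90.5 CPM (median 67.6) (FDR = 0.015). CHTF18, a replication factor, was at 3.04, 2.64, 2.21, 2.37 and 1.25 CPM against 3.82 to 9.58 CPM (median 5.71) (FDR = 0.0154), and LRFN4 at 13.4, 8.59, 12.6, 11.7 and 9.17 CPM against 15.9 to 28.1 CPM (median 18.4) (FDR = 0.0181, lost without cow 8541 or 8713). LOC100299180 differed by -2.76 ± 0.56 (FDR = 0.0148).

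Of the 10 genes that differed most at D-3 in the higher direction, 3 passed at D3. HSTN was at 5.52, 364, 277, 256 and 225 CPM against 0.294 to 27.8 CPM (median 0.636) (FDR = 0.0193), and LOC786474 and KRT24 had FDR values of 0.0169 and 0.027. FABP3 (2.32 ± 0.70, FDR = 0.0555) and SLC30A2 (3.12 ± 0.93, FDR = 0.0511) did not. ALOX15 was at 2.99 to 7.58 CPM in these cows, against 1.56 to 9.15 CPM in the others. Of the lower set, CHRDL2 (-3.34 ± 0.93, FDR = 0.0418) and CCNB1 passed. KRT24 lost the call in 6 of 22 alternatives and CHRDL2 in 8, each by leaving out a cow, and without cow 8686 the difference of CHRDL2 was -1.90.

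Of the 22 list members that passed at D3, 6 passed under every alternative tried, and these were LPIN1, SLC7A8, ATP2C2, CTSV, LIF and LBP. The other 16 lost the call under at least 1 of them, none of them by leaving out cow 7965. None changed sign, which was unlikely in genes chosen for passing. KRT19, CLDN3, XDH and ACACA each lost the call in 12 of 22 alternatives, with an FDR of up to 0.139 for KRT19. SCD and SLC3A2 lost it in 11, INSIG1, SLC2A1 and CCNB1 in 10, PSPH in 9, CLDN7 in 8 and OSMR in 6. CALB1 and SLPI lost it in 10 of 21. SC5D lost it only with library size alone (0.49, FDR = 0.068), and ACSS1 only without cow 8541 (FDR = 0.052) or 8713 (FDR = 0.0603). Class thresholds of 10% and 30%, counted among the alternatives, gave the same classes and so could not change a call.

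At D7 no locus passed in edgeR's quasi-likelihood test (0% of 14711), with 1664 at an unadjusted p under 0.05 and 232 by DESeq2. D14 had 0 (0%), with 1347 at an unadjusted p under 0.05 and 19 by DESeq2, and 0 also without the D14 library of cow 7965, when 756 were under 0.05. D25 had 0 (0%), with 1233 and 12, respectively. The loci with the smallest p at D7 were KCNK5, a potassium channel, at 9.43, 6.43, 12.2, 6.88 and 6.24 CPM in cows of the rich class and 12.2 to 38.8 CPM (median 26.9) in the others (FDR = 0.217), a locus without a symbol, XLOC_011935, at 10.7, 321, 68.1, 61.3 and 19.5 CPM against 0.939 to 9.22 CPM (median 3.23), and NEBL, an actin-binding protein, at 62.1, 35, 47.9, 50.9 and 62 CPM against 82.3 to 325 CPM (median 155). KCNK5 had been apart in the opposite direction at D-3 (2.32 ± 0.26). At D14 the loci XLOC_000122, XLOC_008646 and XLOC_019701 had the smallest p, with FDR of at least 0.18, and at D25 XLOC_011298, XLOC_003759 and XLOC_000907, with FDR of 0.577.

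At D7 the median of each of the 6 synthetic lists was below 0, and no gene passed. FASN was at 908, 629, 807, 665 and 534 CPM in cows of the rich class and at 787 to 6192 CPM (median 3473) in those of the poor class, a difference of -2.18 ± 0.48 that did not pass over all loci (FDR = 0.217). Of the 13 milk fat genes 11 had a negative difference at D7, as had 6 of 6 for fat uptake and 6 of 6 for mineral transport, with list medians of -0.70, -1.50 and -1.39 against 0.00 for all loci. The other synthetic lists were more evenly split, with 4 of 6 negative for lactose (median -0.29), 6 of 10 for amino acids (-0.11) and 7 of 12 for cholesterol (-0.07). SLC7A8, at 20.5, 38.7, 47, 22.7 and 34.3 CPM against 9.14 to 62.6 CPM (median 17.4), CTSV, at 75.1, 66.2, 66.7, 78.4 and 78.3 CPM against 47.6 to 95 CPM (median 58.8), and LBP, at 229, 114, 286, 200.4 and 439 CPM against 50.9 to 376 CPM (median 101), overlapped at D7.

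The change of the class effect between the 2 days was tested directly, as the interaction of class and day in the 24 libraries of D3 and D7 with the cow as a block. This test, added after the data were seen, passed for 2169 loci, with 1095 (7.44%) whose rich minus poor difference was higher at D7 and 1074 (7.3%) where it was lower. Of the 883 loci higher at D3, 513 (58.1%) were among them, and of the 393 lower, 189 (48.1%), where all loci gave 14.7%. These loci were chosen on the D3 values that the interaction uses again, so higher shares follow from that choice and are no result. Without cow 7965 the number was 4640. SLC7A8, CTSV, ATP2C2, LIF and LBP had likewise passed at D3, so a fall in their difference was favoured by that choice. The difference moved by -3.57 ± 0.86 for SLC7A8 (FDR = 0.0241), by -1.82 ± 0.38 for CTSV (FDR = 0.0214) and by -2.88 ± 0.69 for ATP2C2 (FDR = 0.024). For LIF (-1.15 ± 0.65, FDR = 0.228) and LBP (-0.90 ± 0.56, FDR = 0.278) it did not pass. FN1 (1.44 ± 0.39, FDR = 0.0307) and DCN (1.12 ± 0.24, FDR = 0.0216) moved in the other direction.

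With the 4 dry libraries of each cow summed, 0 loci (0%) separated the classes in edgeR's quasi-likelihood test, with 1661 at an unadjusted p under 0.05 and 209 by DESeq2. The smallest p belonged to CTSV (0.94 ± 0.15) and to the loci XLOC_023532 (1.06 ± 0.17) and XLOC_015095 (-1.62 ± 0.27), all with FDR = 0.164. Without cow 7965 the count was 8, all higher, and without cow 8668 it was 15. A fit of all 48 libraries that kept the cow as a block gave 7, of which 3 were higher and 4 lower in the cows of the rich class.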

How the data were processed

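RNA-seq libraries of mammary biopsies from 12 cows at 5 days were used, 60 in all. Reads had been trimmed with Trim Galore 0.4.1, aligned with TopHat2 2.0.13, assembled with Cufflinks 2.2.1 and counted with HTSeq, per the study's methods and the submitters' processing notes. The authors deposited the counts per locus of each sample, unnormalized. The methods and the labels name different genome builds, so no coordinates are given. Totals were 20525083 to 26183990 counts per library.

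The 12 D-3 libraries were split at a milk gene share of 20%. The other 14711 loci, those that reached 1 CPM in 6 or more of the 60 libraries, were fitted with edgeR 4.0.16 (R 4.3.3), in quasi-likelihood F-tests with TMM factors and library sizes computed without the 3 milk loci and FDR (Benjamini-Hochberg) over all of them. Single genes were also given a two-sided exact permutation test over 792 assignments (log2 CPM, prior count 2), whose smallest p is 0.00253. The replicate is the cow. Symbols came from an incomplete copy of the gene tables supplied with the study, and this copy pairs 3033 of 25223 loci. The study states that its full tables list all genes. Genes named are members of the gene lists (the first 4 matched members with per-sample values, except 1 that is not reported here), the 10 largest differences in each direction at D-3 with classes apart, and loci with the smallest p at later days. A locus that joins several genes is given with all their symbols. The members, lists and tests were chosen with earlier results of these data known. The test of class by day, the within-cow differences, the scaling without the 10 other most abundant loci and the exchange of libraries of cows 8513 and 8660 were added after the data were seen. Alternatives were other scalings, filters, class thresholds, treatment as a covariate, DESeq2 1.42.0, limma 3.58.1 with the cow as a block, and leaving out each cow. Of the fits, only the D3 comparison of classes was tested on simulated counts. These held no outlying cow, so the simulation did not cover that case.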

Additional observations from a re-analysis of the deposited data

Results flagged for a closer look

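Within each class and day, the highest or lowest cow was compared with the rest of its class, and 23 values in 160 groups lay apart by Dixon's criterion (0.71 for 5 cows, 0.568 for 7). Chance alone flags about 1 in 20 groups, so some of these are expected by chance. No explanation was tested.

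Cow 7965, of the rich class, accounted for many of them. At D3 its log2 CPM lay below the other 4 rich cows for HSTN (2.49), SLC34A2 (3.37), SLC30A2 (-1.53), FBP2 (1.31), SLC7A8 (4.71) and STK38L (6.45), and above them for LOC100299180 (4.20). At D14 it had 16946 loci detected, and its 5 most abundant loci outside the milk genes took 13.4% of the counts. Its luminal markers were near 0 in that library.

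Cow 8668 had the highest milk share of the poor class at D-3, 8.03%, and the highest log2 CPM of that class for PTHLH (5.29), TECTB (3.06) and LPL (8.21). Cow 8513, also poor, was highest at D-3 for HNF4G (1.43), FBP2 (4.91) and SLC7A8 (7.38), 3 genes that were among those with the smallest p at D3, and had a milk share of 14.5% at D7.

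Of the remaining cows, 8647 had a milk share of 2.14% at D14, the highest of the rich class. Cow 8541 had 26183990 counts at D7 and 18251 loci detected at D25. CHRDL2 lay apart in cow 8686 at D3 (log2 CPM 5.09) and NGFR in cow 8314 at D3 (4.97). The locus of LOC617219, LOC781146 and LYSB lay apart in cow 8564 at D-3 (-2.32), the only rich cow with a read of it.

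The class effect differed between D3 and D7 in 2169 loci by the test of class by day.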

How the results depend on the processing

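None of the genes refitted under the alternatives (73 at D-3 and 37 at D3) changed sign. The 73 had been chosen as apart and at least 2-fold and the 37 as passing, so this was likely beforehand. Other listed genes, and the loci named at later days, were not refitted singly. Library size alone moved the size of the difference in 45 of the 73 genes at D-3, and 13 of the 37 at D3 lost the call. With library size alone 4710 loci were apart and at least 2-fold at D-3. The larger share of the calls then turned from higher to lower, with 289 and 4421 at D-3 and 396 and 871 at D3. DESeq2 called 2538 loci at D3, 232 at D7, 19 at D14, 12 at D25 and 209 over the 4 dry days, more than edgeR each time, and the cause was not tested. Over the 4 dry days, the fit with the cow as a replicate block called 7 loci where the sums gave 0, and the correlation within a cow was 0.297. When 1 cow at a time was removed, between 1751 and 2339 loci were apart and at least 2-fold at D-3. Leaving out a library makes it easier for the classes not to overlap, so this count could hardly fall. The tests with 1 cow removed called between 437 and 4471 loci at D3 and between 0 and 1 at D7 as at D14. They called 0 at D25 and between 0 and 15 over the dry days. Without cow 7965 the test of class by day called 4640. The difference in milk share ran from 3.53 to 5.33 percentage points at D3, from -3.68 to -1.27 at D7, from -1.54 to -0.793 at D14 and from -0.782 to -0.232 at D25, with an exact permutation p of 0.0476 at D7 without cow 8603 and of 0.00606 at D14 without cow 8647. The other scalings, filters and the treatment covariate gave 1102 to 1437 loci at D3, and thresholds of 10% and 30% gave the same classes. With the D14 and D25 libraries of cows 8513 and 8660 exchanged, 0 loci were called over the dry days. Alternatives that needed CSN1S2, CSN3, PAEP and GLYCAM1 were not run, since the incomplete copy of the study's gene tables paired no locus with them. With 5 cows against 7, small differences may not be detectable.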
